A study of Mus musculus with 38 samples.

Results

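The hexokinase family is described here as its 4 genes in the count files, Hk1, Hk2, Hk3 and Hkdc1, out of 46078 genes, across 38 RNA sequencing libraries of mouse intestinal epithelial cells. The genes were taken by gene symbol and not by a cut on their measured values, but with earlier results of these data known. The question was whether another hexokinase was higher where Hk2 had been deleted from the epithelium, before and during colitis. All mice were C57BL/6 and all carried floxed Hk2 alleles. KO mice (Hk2dIEC in the labels) also carried Cre recombinase driven by the Villin promoter, which is active in intestinal epithelial cells. WT mice were Hk2fl/fl littermates. Day 0 mice were untreated, and the other mice drank 1.5% dextran sodium sulfate (DSS), which injures the colonic epithelium, for 3 or 7 days. The DSS mice were males of 10 to 12 weeks, and the labels do not tie an age or sex to the day 0 mice. There were 4 WT and 5 KO libraries on day 0, 7 WT and 8 KO on day 3, and 7 WT and 7 KO on day 7. Libraries are named by day, genotype and the number in their label, as in d0_WT_31. The labels do not say that each library came from a separate animal, so p-values measure the spread between these libraries.

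Libraries held 10.5 to 60.64 M counts (M, mega). The labels name isolated epithelial cells while the series text names colon tissue. All 8 epithelial marker genes (Epcam, Vil1 and others) were detected in every library, with summed levels of 9493 to 19090 CPM, that is counts per M counts of the library, scaled by the TMM method. Markers of other cell types were also detected, and they are given beside the results they touch. The day 0 libraries formed a library series of their own, with mitochondrial rRNA at 6.25 to 13.8% of counts in 8 of them and at 45.6% in d0_KO_32, against 0.352 to 3.95% later. Histone genes made up 0.262 to 0.407% of counts on day 0 and 0.012 to 0.054% later. Day 0 and that series cannot be told apart, so levels on day 0 and on later days are set side by side without a test. In bulk samples, fewer cells of a type and less RNA per cell cannot be told apart either.

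Hexokinases phosphorylate glucose to glucose 6-phosphate, the step that traps glucose in the cell and feeds glycolysis, the pentose phosphate pathway and glycogen and hexosamine synthesis. Hexokinase 1 is the broadly expressed form, and hexokinase 2 is the inducible form of muscle, fat and proliferating cells. Both bind the outer mitochondrial membrane. Hexokinase 3 is best known from myeloid blood cells, and Hkdc1 encodes a further hexokinase-like protein found in epithelia such as gut and kidney.

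All 4 genes lie on the minus strand, at positions given by the files for the GRCm38 build. Hk1 (ENSMUSG00000037012) spans chr10:62268855-62379908 and Hkdc1 (ENSMUSG00000020080) spans chr10:62383137-62422491, so that Hkdc1 ends 3228 bases upstream of the Hk1 start. Hk2 (ENSMUSG00000000628) spans chr6:82725025-82774454, and Hk3 (ENSMUSG00000025877) spans chr13:55005985-55021385. Each count covers all annotated exons of the gene. The labels do not give the floxed exon, so a shortened Hk2 transcript that keeps the other exons would still be counted. Reads were counted without regard to strand. Hk2 overlaps the antisense gene Gm17034, Hk1 overlaps the antisense gene Hk1os, and the end of Hk3 overlaps the end of Unc5a on the opposite strand, so reads of these pairs in shared sequence cannot be told apart.

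The promoters of Hk2 and Hkdc1 are shown because these were the 2 members whose levels differed between the genotypes without overlap on day 0. Both are the 250 bases upstream of the RefSeq transcription start on the GRCm38.p6 build, minus strand, written in the direction of transcription. Hk2 lies at chr6:82774455-82774704 and Hkdc1 at chr10:62422458-62422707. The RefSeq start of Hkdc1 is slightly inside the gene as the files give it, so that window includes the first bases of the files' gene. Capitals mark matches on either strand to 3 motifs. These are ACGTG, the core of the hypoxia response element, which reads CACGT from the opposite strand, the CCAAT box, which reads ATTGG from there, and the GC box GGGCGG, which reads CCGCCC from there.
Hk2 promoter: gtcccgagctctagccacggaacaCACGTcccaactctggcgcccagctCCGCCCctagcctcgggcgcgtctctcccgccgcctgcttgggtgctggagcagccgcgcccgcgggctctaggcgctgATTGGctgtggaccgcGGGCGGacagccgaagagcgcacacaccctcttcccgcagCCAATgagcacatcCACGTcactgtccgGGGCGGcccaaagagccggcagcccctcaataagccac
Hkdc1 promoter: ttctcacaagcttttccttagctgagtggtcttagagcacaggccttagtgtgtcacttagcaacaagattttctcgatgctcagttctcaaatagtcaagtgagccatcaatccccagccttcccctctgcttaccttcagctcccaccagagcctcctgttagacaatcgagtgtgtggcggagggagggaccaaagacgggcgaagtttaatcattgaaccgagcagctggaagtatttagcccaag
The Hk2 window held 2 matches to ACGTG, 2 to CCAAT and 3 to GGGCGG, none overlapping another, and 69.6% of its bases were G or C. The Hkdc1 window held none of these letters, with 49.6% G or C against a median of 52.4% over all windows. Neither of the 2 Hk1 windows held a match, and the Hk3 window held 1 match to ACGTG. Of 32851 RefSeq windows of the same length, 16.6% held ACGTG, 33.8% held CCAAT and 32.7% held GGGCGG. A match describes the letters and is not a measured binding site.

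Hk2, the deleted gene, was lower in KO than in WT epithelium on day 0. It stood at 254, 290, 396 and 449 CPM in the WT libraries d0_WT_31, d0_WT_43, d0_WT_41 and d0_WT_46. In the KO libraries it stood at 33.1 in d0_KO_32, 60.7 in d0_KO_24, 80.8 in d0_KO_53, 89.7 in d0_KO_54 and 118 CPM in d0_KO_60. Every KO library was below every WT library, which held for 1.32% of the 14944 genes tested that day. The WT mean was 347 ± 90.6 CPM (SD, n = 4) and the KO mean 76.5 ± 31.8 CPM (SD, n = 5), a ratio of 0.220. The log2 fold change was -2.20 (SE 0.298, 95% interval -2.85 to -1.55, adjusted p = 0.0331 over all genes by the edgeR quasi-likelihood test). This was the only member of 3 tested that passed on day 0, where 0.0335% of all genes passed. The call was lost in 6 of 9 fits that left out 1 library (d0_WT_41, d0_WT_43, d0_WT_46, d0_KO_24, d0_KO_53 or d0_KO_54), with log2 fold changes of -2.40 to -2.0 over all 9. Without d0_KO_32, the library high in mitochondrial rRNA, it was -2.0 and passed (edgeR adjusted p = 0.0085). Gm17034, the antisense gene within Hk2, was at 5.27 to 25.1 CPM in WT and 4.58 to 12.7 CPM in KO on day 0 and at 0.584 CPM or less later.

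On day 3 Hk2 did not separate the genotypes. The lowest, median and highest levels were 97.05, 176 and 220.5 CPM in the 7 WT libraries and 68.4, 108 and 435 CPM in the 8 KO libraries. The highest KO value came from the library labelled d3_KO_345, and the next KO library was at 128 CPM. That library, at 20913 Hk2 counts, stood above every WT library of day 3, and the library labelled d3_WT_346 was the lowest WT library, inside the KO range. Both labels are kept as given. The group means were 173 ± 47.1 CPM (SD, n = 7) and 144 ± 119 CPM (SD, n = 8), with a log2 fold change of -0.27 (SE 0.332, 95% interval -0.97 to 0.43, edgeR adjusted p = 0.802). Leaving out the library labelled d3_KO_345 gave a KO mean of 103 ± 21.8 CPM (SD, n = 7) and a log2 fold change of -0.74. Without both libraries it was -0.85 (edgeR adjusted p = 0.429). Myeloid marker genes had higher fitted levels in KO on day 3: all 10 tested of 15 listed were above 0 in log2 fold change, with a median of 1.14 against -0.005 over all genes. None passed with edgeR or DESeq2, and 6 had an unadjusted p under 0.05, against 7.88% of all genes. Their sum was 19.9 to 58.8 CPM in WT and 25.2 to 77.7 CPM in KO, apart from 267 CPM in the library labelled d3_KO_345. With the myeloid mean as a covariate the Hk2 log2 fold change was -0.79 (edgeR adjusted p = 0.921). None of the 3 members tested on day 3 passed and 0 had an unadjusted edgeR p under 0.05 or passed with DESeq2. Of all genes 0.00647% passed with edgeR, 7.88% had such a p and 0.0129% passed with DESeq2. None of the 3 members had separate ranges, against 0.0323%.

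On day 7 Hk2 was at 228, 305 and 611 CPM (lowest, median, highest) in WT and at 56.1, 126 and 268 CPM in KO. Of the 7 KO libraries 6 were below every WT library, and d7_KO_420 lay at the height of the lower WT libraries. The means were 332 ± 127 CPM (SD, n = 7) and 140 ± 71.5 CPM (SD, n = 7), a ratio of 0.420. The log2 fold change was -1.25 (SE 0.298, 95% interval -1.88 to -0.61), which did not pass over all genes with edgeR (adjusted p = 0.291) and passed with DESeq2 (adjusted p = 0.0135). None of the 4 members passed with edgeR on day 7, against 0.00642% of all genes, and none had separate ranges, against 0.282%. DESeq2 called 83 genes on day 7 (0.533% of those tested) where edgeR called 1.

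Over all days in 1 model, Hk2 was lower in KO by a log2 fold change of -1.09 (SE 0.237, 95% interval -1.57 to -0.61, edgeR adjusted p = 0.122). Of the 4 members none passed, against 0.0209% of all genes. The call depended on the day 3 libraries: it was -1.29 (adjusted p = 0.000186) without d3_KO_345 and -1.16 (adjusted p = 0.0451) without d3_WT_346, both with edgeR. DESeq2 on all 38 libraries gave -1.10 (adjusted p = 0.00678).

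**Figure D1:**
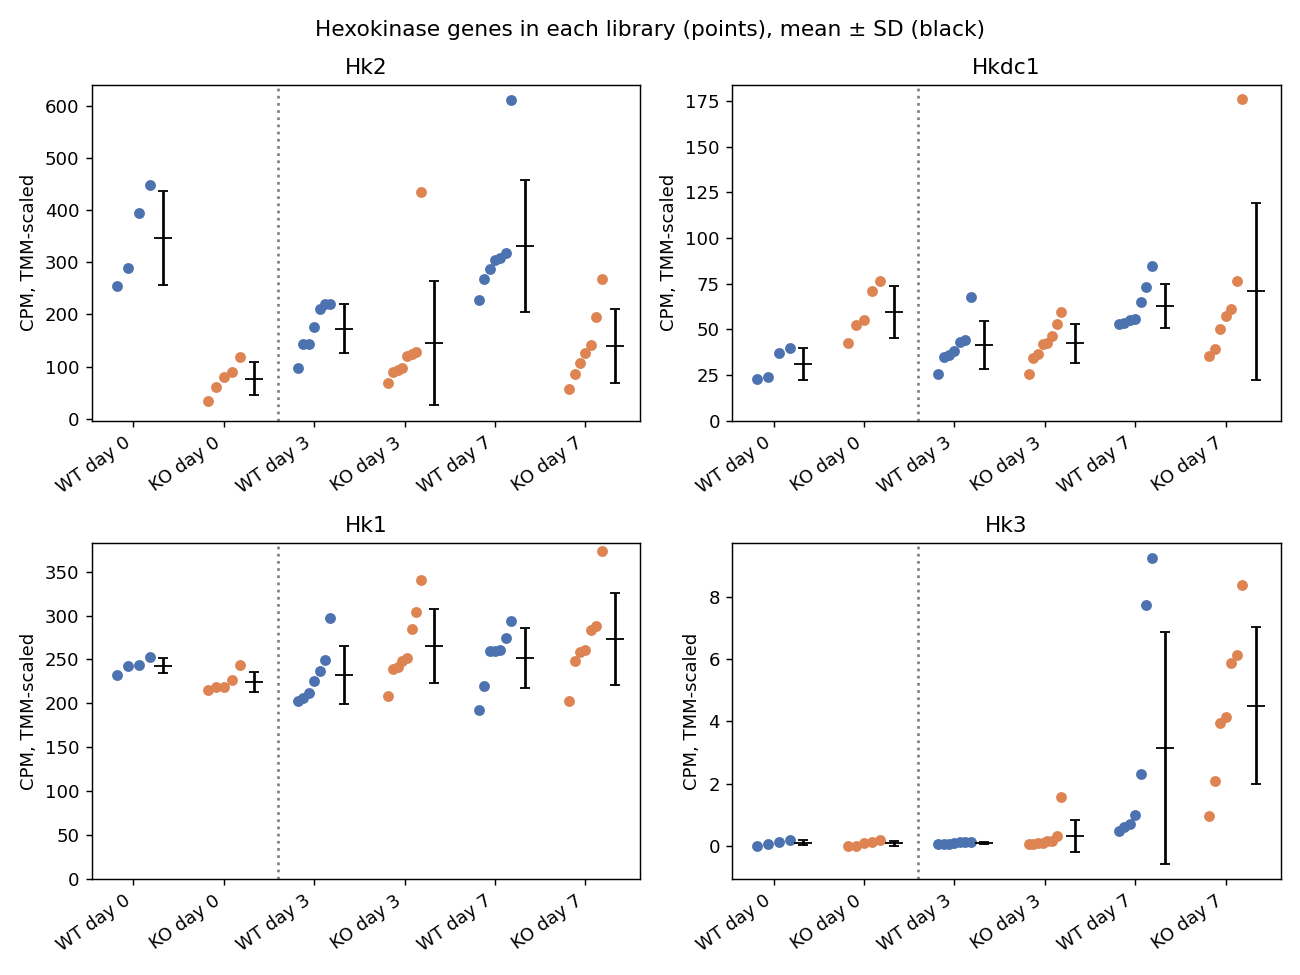
Level of each hexokinase gene (vertical axes, TMM-scaled CPM) in each of the 38 libraries, WT in blue and KO in orange, by day, with the mean and SD of each group in black; the dotted line separates the day 0 library series. Hk2 is separate between the genotypes on day 0, at 254 to 449 CPM in WT and 33.1 to 118 CPM in KO, and 1 KO library of day 3 stands at 435 CPM.

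Hkdc1 was the only other member with separate levels between the genotypes on day 0, higher in KO, but the difference did not pass the edgeR test over all genes. In WT it was at 22.9 CPM in d0_WT_43, 23.99 in d0_WT_31, 36.8 in d0_WT_41 and 39.8 in d0_WT_46. In KO it was at 42.4 CPM in d0_KO_32, 52.5 in d0_KO_24, 55.4 in d0_KO_54, 71.0 in d0_KO_60 and 76.7 in d0_KO_53. Every KO library was above every WT library, which held for 2.06% of the genes tested. The means were 30.9 ± 8.66 CPM (SD, n = 4) and 59.6 ± 14.04 CPM (SD, n = 5), a ratio of 1.93. The log2 fold change was 0.93 (SE 0.205, 95% interval 0.48 to 1.38, edgeR adjusted p = 0.191). It passed with DESeq2 (0.94, adjusted p = 0.00311, among 177 genes called) and with edgeR on unfiltered genes (0.91, adjusted p = 0.0255, among 52). In 9 fits that left out 1 library each it was 0.81 to 1.08 and passed in 0. Without d0_KO_32 it was 1.04 (edgeR adjusted p = 0.0852).

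Markers of small intestinal epithelium also had higher fitted levels in KO on day 0. Of the 10 listed genes 6 were tested (Sis, Fabp6, Rbp2 and others), and 5 were above 0 in log2 fold change. The median was 1.03 against -0.003 over all genes. With edgeR 0 passed and 3 had an unadjusted p under 0.05, against 10.5% of all genes. DESeq2 called 1, against 1.34%. The sum of all 10 was 124 to 483.5 CPM in WT and 226 to 622 CPM in KO. Without Reg3b, an antimicrobial lectin that made up most of it, the sum was 28.3 to 47.9 CPM in WT and 48.4 to 176 CPM in KO. With the mean of this list as a covariate, the Hkdc1 log2 fold change was 0.59 (edgeR adjusted p = 0.34). Colon markers summed to 10870 to 20240 CPM in WT and 10770 to 31460 CPM in KO. Lymphoid, stromal and enteroendocrine markers also had higher fitted levels in KO that day, with 0 called by edgeR or DESeq2 in each list. Of lymphoid markers 6 of 7 tested were above 0 (median 0.82, 4 with an unadjusted p under 0.05), of stromal markers 4 of 6 (median 0.83, 4 with such a p) and of enteroendocrine markers 4 of 4 (median 0.745, 3 with such a p). The lymphoid sums were 8.19 to 17.2 CPM in WT and 8.80 to 26.2 CPM in KO, the stromal sums 19.8 to 35.02 and 19.6 to 46.4 CPM, and the enteroendocrine sums had a lowest value of 124.9 CPM and a median of 155.6 CPM in WT against 123.3 and 292.5 CPM in KO. Tuft cell markers had a median of 0.228 (4 of 4 above 0). Medians were below 0 for colon (-0.308, 2 of 7 above 0) and myeloid markers (-0.302, 2 of 6). They were also below 0 for red cell (-0.277, 1 of 5) and epithelial markers (-0.101, 2 of 8). Of the colon markers DESeq2 called Car1, and 2 had an unadjusted p under 0.05. With the myeloid mean as a covariate, the Hkdc1 log2 fold change was 0.95 (edgeR adjusted p = 0.25). The small intestine mean, in log2 CPM scaled over all libraries, was 0.07 to 1.12 in WT and 0.938 to 3.708 in KO on day 0. That covariate thus follows the genotype in part and cannot separate this list from it. The part of these lists in the Hkdc1 difference was not tested.

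On day 3 Hkdc1 was level between the genotypes in its means. The WT mean was 41.3 ± 13.3 CPM (SD, n = 7) and the KO mean 42.5 ± 10.7 CPM (SD, n = 8). The lowest, median and highest libraries were at 25.3, 38.2 and 67.8 CPM in WT and at 25.7, 42.1 and 59.5 CPM in KO. The log2 fold change was 0.05 (95% interval -0.36 to 0.45, edgeR adjusted p = 0.946). On day 7 it was at 52.96, 55.7 and 84.6 CPM in WT and at 35.6, 57.2 and 176 CPM in KO. The groups overlapped, with 3 KO libraries below every WT library and d7_KO_420 far above. The log2 fold change was 0.17 (95% interval -0.45 to 0.79, edgeR adjusted p = 0.82) and -0.23 without d7_KO_420. The difference between days in the genotype effect was itself tested. For Hkdc1 it was -0.90 for day 3 against day 0 (95% interval -1.71 to -0.10, edgeR adjusted p = 0.386) and -0.77 for day 7 against day 0 (adjusted p = 0.378). The second was -1.18 (adjusted p = 0.0409) without d7_KO_420, which left 436 genes called where the fit of all libraries had 4.

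Hk1, the broadly expressed member, varied least in relative terms among the 3 abundant genes. Its group means ran from 225 CPM in KO on day 0 to 273 CPM in KO on day 7. That was a ratio of 1.22, against 4.54 for Hk2 and 2.3 for Hkdc1. In the order of the 6 groups every neighbouring pair overlapped, which also held for Hkdc1 and Hk3. On day 0 Hk1 was at 232, 243, 244 and 253 CPM in WT and at 216, 218, 219, 227 and 244 CPM in KO. Of the 5 KO libraries 4 were below every WT library. The log2 fold changes of KO against WT were -0.12 on day 0 (95% interval -0.30 to 0.05), 0.19 on day 3 (-0.03 to 0.41) and 0.12 on day 7 (-0.13 to 0.37). None passed, with edgeR adjusted p of 0.608, 0.63 and 0.662. The upper ends of these intervals were 0.05, 0.41 and 0.37 on the log2 scale. Each interval is for 1 gene on 1 day, not adjusted over genes, so they set no firm limit on an increase. With 1 library left out the day 7 value ran from 0.0321 to 0.18.

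Hk3 was close to the detection limit in untreated epithelium. It had 0 to 7 counts per library on day 0 in WT and 0 to 2 in KO, where 3 counts correspond to 0.0615 to 0.352 TMM-scaled CPM, for counting error only. On day 3 the WT libraries had 1 to 8 counts. The KO libraries had 3 to 14 counts except the library labelled d3_KO_345, which had 75. Hk3 did not pass the filter on low counts on days 0 and 3, so it was not tested between the genotypes within those days. In the fit of all libraries, the change of the genotype difference from day 0 to day 3 was 2.36 (95% interval -1.23 to 5.95, edgeR adjusted p = 0.613) on the log2 scale. On day 7 it was at 0.467, 1.01 and 9.23 CPM (lowest, median, highest) in WT and at 0.966, 4.14 and 8.37 CPM in KO. The means of 3.15 ± 3.72 CPM (SD, n = 7) and 4.51 ± 2.53 CPM (SD, n = 7) differed by less than the spread, with a log2 fold change of 0.52 (95% interval -0.89 to 1.92, edgeR adjusted p = 0.746). Unc5a, whose sequence overlaps Hk3, was at 1.95 to 6.55 CPM over all libraries and was present on day 0 where Hk3 was nearly at 0.

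**Figure D2:**
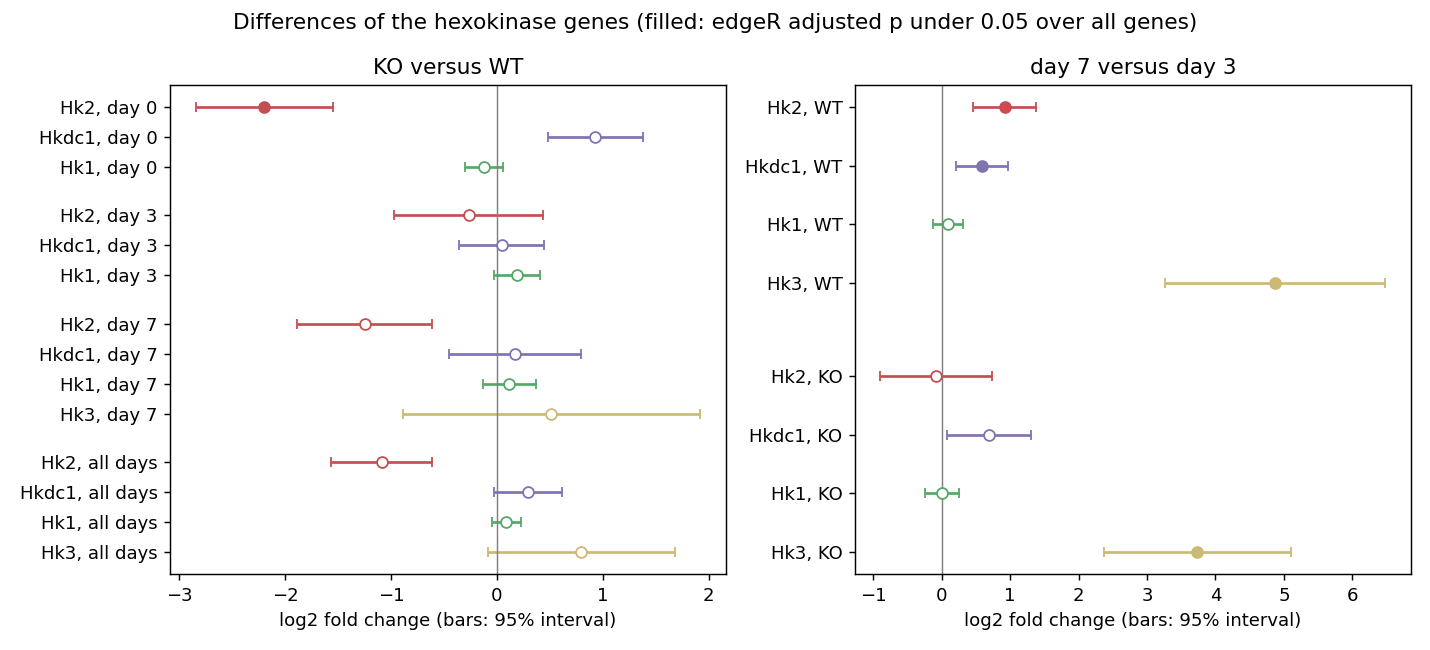
Log2 fold changes with 95% intervals (horizontal axes) for each member, KO against WT on the left and day 7 against day 3 within each genotype on the right; filled points passed at an edgeR adjusted p under 0.05 over all genes. On the left only Hk2 on day 0 is filled, at -2.20, and on the right Hk2, Hkdc1 and Hk3 in WT and Hk3 in KO are filled.

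The levels of the genes can be compared with each other only per length. Dividing CPM by the gene length in the files (8532 bases for Hk1, 5969 for Hk2, 5132 for Hkdc1 and 3682 for Hk3) gave CPM per kb. On this scale Hk2 was the highest member in WT epithelium on day 0, at 58.2 ± 15.2 CPM per kb (SD, n = 4) against 28.5 for Hk1, 6.02 for Hkdc1 and 0.0275 for Hk3. In KO on day 0 Hk1 was the highest, at 26.3 ± 1.33 CPM per kb (SD, n = 5), with Hk2 at 12.8, Hkdc1 at 11.6 and Hk3 at 0.0224. The gene length joins the exons of all transcripts. Hk1 has many alternative transcripts, and its principal transcript in GENCODE M21 is 3851 bases long, so its level per kb is understated relative to the others on this scale.

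The summed level of the 4 genes was lower in KO on day 0. It was 77.0, 80.2, 102 and 111.5 CPM per kb in the WT libraries and 39.4, 48.9, 51.5, 53.8 and 60.3 in the KO libraries, with no overlap. The means were 92.7 ± 16.8 (SD, n = 4) and 50.8 ± 7.62 CPM per kb (SD, n = 5), a ratio of 0.548. The difference of means, KO minus WT, was -45.4 CPM per kb for Hk2, 5.60 for Hkdc1, -2.14 for Hk1 and -0.00512 for Hk3. The sum without Hk2 was 34.5 ± 2.05 in WT and 37.96 ± 2.79 CPM per kb in KO, with overlapping ranges of 31.7 to 36.2 and 33.9 to 40.5. The lowest KO value was that of d0_KO_32, and without it the KO libraries ran from 36.5 to 40.5, with a mean of 38.98 and no overlap with WT. That lack of overlap rests on leaving out 1 library and on the gene lengths in the files, on which Hk1 is understated. The sum without Hk2 was not described with principal transcript lengths. With principal transcript lengths in place of the gene lengths, the log2 ratio of the summed levels was -0.60 in place of -0.87.

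The composition of the family also differed between the genotypes on day 0, where Hk2 made up 62.1 ± 5.32% of the summed level in WT (SD, n = 4) and 24.4 ± 7.32% in KO (SD, n = 5). The Hk2 shares ran from 55.4 to 67.5% in the WT libraries and from 14.1 to 32.8% in the KO libraries. Hkdc1 made up 6.41 ± 0.709% in WT and 22.7 ± 2.98% in KO, with ranges of 5.56 to 7.03% and 20.9 to 27.8%. Hk1 made up 31.5% and 52.8%. With principal transcript lengths the Hk2 share was 46.1% and 15.2%, the Hkdc1 share 6.41% and 18.8%, and Hk1 was the highest member in both genotypes. The shares of the other members follow in part from the lower Hk2, since they sum to the whole.

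On day 3 the summed level was 64.3 ± 5.97 CPM per kb (SD, n = 7) in WT and 63.6 ± 23.3 (SD, n = 8) in KO, a ratio of 0.989. Without the library labelled d3_KO_345, which stood at 119.8, the KO mean was 55.6 and the ratio 0.864. On day 7 it was 98.3 ± 24.1 in WT and 70.5 ± 25.4 CPM per kb in KO (SD, n = 7 each), a ratio of 0.717. The library d7_WT_356 was the highest in WT at 150.2, and d7_KO_420 was the highest in KO at 124.6. Without d7_KO_420 the KO mean was 61.4 and the ranges of the genotypes did not overlap. The KO libraries then reached 74.87 and the WT libraries began at 78.5 CPM per kb. That lack of overlap rests on leaving out the highest KO library, and the sum includes the deleted Hk2. The sum without Hk2 was 35.4 in WT and 39.4 in KO on day 3, and 42.6 and 47.1 CPM per kb on day 7. On days 3 and 7 these differences were smaller than the SD of the KO libraries, which was 5.98 and 14.7 CPM per kb. The SD of the WT libraries was 4.11 and 5.52 CPM per kb. An SD of single libraries does not measure the uncertainty of a difference of means, and these differences were not tested. The KO mean on day 7 rested on d7_KO_420 at 79.7. Without that library it was 41.6, below the WT mean.

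The KO libraries with the lowest Hk2 differed in their other members from day to day. On day 0 d0_KO_32 had the lowest Hk2 and also the lowest Hkdc1 of its group, and it was the library with 45.6% mitochondrial rRNA. On day 3 d3_KO_385 had the lowest Hk2 at 68.4 CPM and the highest Hkdc1 at 59.5 CPM. On day 7 d7_KO_366 had the lowest Hk2 and a low Hkdc1 of 39.3 CPM, while d7_KO_420 was the highest in Hk1, Hk2 and Hkdc1 alike, at 373, 268 and 176 CPM. That library also had the highest myeloid marker sum, at 2114 CPM against 211 to 812 CPM in the other KO libraries of day 7.

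**Figure D3:**
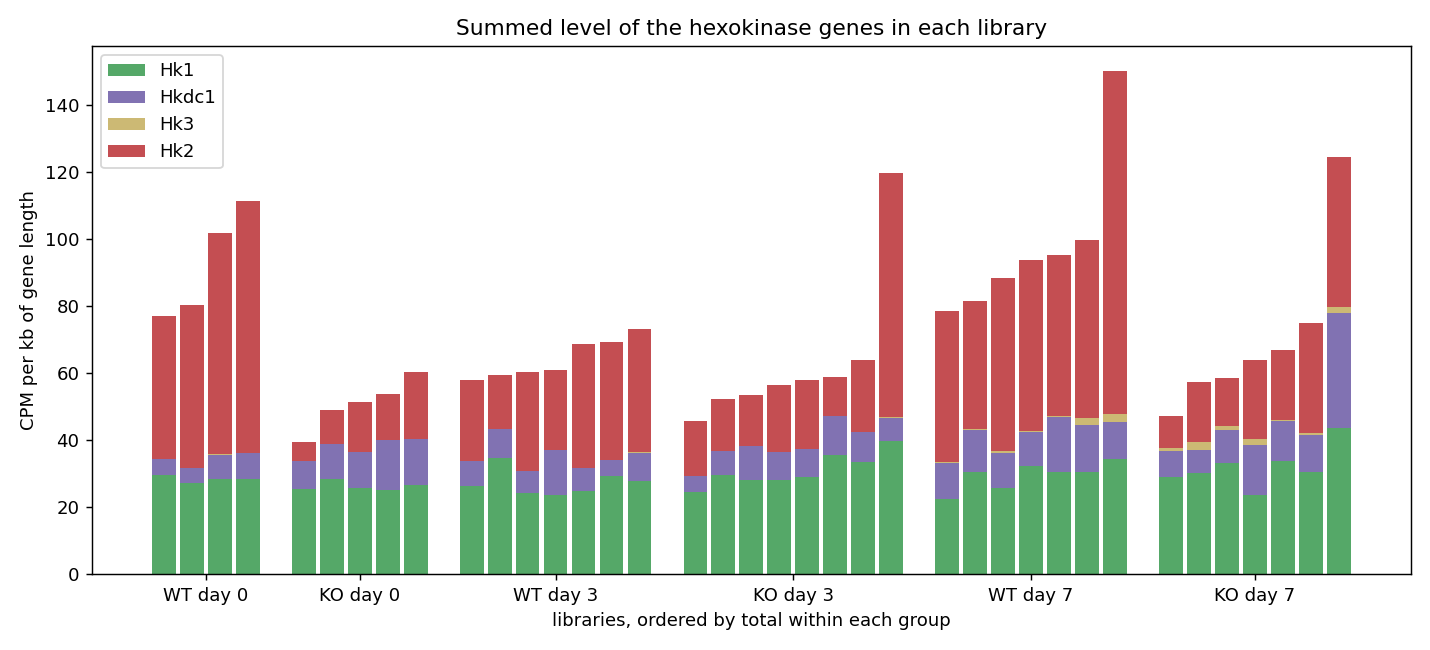
Summed level of the hexokinase genes (vertical axis, CPM per kb of gene length) in each library, stacked by gene and ordered by total within each of the 6 groups (horizontal axis). On day 0 the WT bars reach 77.0 to 111.5 and the KO bars 39.4 to 60.3, and the green and purple parts below the red Hk2 part sum to 34.5 and 37.96 on average.

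From day 3 to day 7 of DSS, 3 members were called higher in WT epithelium and 1 in KO, which does not by itself show a difference between the genotypes. Of the 4 members tested in each genotype, these calls compare with 19.3% of genes called in WT (10.6% higher) and 19.3% in KO (10.5% higher). Hk2 rose in WT from 173 to 332 CPM, with a log2 fold change of 0.92 (SE 0.216, 95% interval 0.46 to 1.38, edgeR adjusted p = 0.00771). Every WT library of day 7 was above every one of day 3 in Hk2 and in Hk3, which held for 2.95% of genes. The Hk2 call held in all 14 fits that left out 1 library, at 0.71 to 0.99. It did not hold with marker covariates. With the myeloid mean the value was -0.14 (edgeR adjusted p = 0.932), and with the small intestine mean it was 1.53 (adjusted p = 0.0513). All 15 myeloid markers rose in WT over these days, with sums of 19.9 to 58.8 CPM on day 3 and 195 to 1375 CPM on day 7, so the covariate and the day cannot be told apart. In KO the Hk2 log2 fold change was -0.08 (95% interval -0.90 to 0.74, edgeR adjusted p = 0.924) and 0.40 without the library labelled d3_KO_345. No member had separate ranges between the days in KO, against 5.07% of genes.

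The difference between the genotypes in these changes was tested. For Hk2 it was -0.99 (95% interval -1.92 to -0.06, edgeR adjusted p = 1.0) and -0.50 without the library labelled d3_KO_345. None of the 4 members passed for day 7 against day 3, where 0.0% of genes passed and 664 of 19144 had an unadjusted p under 0.05. DESeq2 also called 0 genes there. None passed for day 7 against day 0 (0.0209% of genes) or day 3 against day 0 (0.0104% of genes). For day 3 against day 0 the Hk2 value was 1.92 (95% interval 0.86 to 2.99, edgeR adjusted p = 0.22), or 1.43 without the library labelled d3_KO_345. In these contrasts day 0 stands for its library series as well as for the lack of DSS.

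Hkdc1 rose in WT from 41.3 to 62.8 CPM between day 3 and day 7, with a log2 fold change of 0.59 (95% interval 0.21 to 0.96, edgeR adjusted p = 0.0295). This call was lost in 6 of 14 fits that left out 1 library (d3_WT_348, d3_WT_352, d3_WT_486, d3_WT_487, d7_WT_393 or d7_WT_419), with adjusted p of at most 0.063. It was also lost with the myeloid covariate (0.76, edgeR adjusted p = 0.517), with the small intestine covariate (0.25, adjusted p = 0.721) and in the fit of all 38 libraries (0.61, adjusted p = 0.0738). Both covariates follow the day. In KO the value was 0.69 (95% interval 0.08 to 1.31, edgeR adjusted p = 0.112), and 0.29 without d7_KO_420. The fit of all 38 libraries called Hkdc1 in KO (0.74, edgeR adjusted p = 0.0267). The genotype difference in the Hkdc1 change was 0.13 (95% interval -0.57 to 0.83) and did not pass. The Hk1 log2 fold changes were 0.09 in WT (95% interval -0.13 to 0.31) and 0.01 in KO (-0.24 to 0.25).

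Hk3 rose in both genotypes, from counts near 0 on day 3 to a median of 1.01 CPM in WT and 4.14 CPM in KO on day 7. The log2 fold changes were 4.87 in WT (95% interval 3.27 to 6.48, edgeR adjusted p = 0.00043) and 3.74 in KO (2.36 to 5.11, edgeR adjusted p = 0.000702). They rest on 1 to 8 counts per WT library and 3 to 75 per KO library on day 3, so their size is imprecise. In KO it was 4.91 without the library labelled d3_KO_345. Myeloid markers moved with Hk3: all 15 of 15 listed genes (Itgam, Csf3r, S100a8, Lyz2 and others) rose in both genotypes, with median log2 fold changes of 5.08 in WT and 3.26 in KO. In KO their sum was 25.2 to 77.7 CPM on day 3, apart from 267 CPM in the library labelled d3_KO_345, and 211 to 2114 CPM on day 7. The library labelled d3_KO_345 was thus the highest of day 3 in Hk3 and in the myeloid sum. With the myeloid mean as a covariate, the Hk3 log2 fold change was -2.47 in WT (edgeR adjusted p = 0.294) and 0.33 in KO (adjusted p = 0.822). This covariate follows the day, and with it the genes called fell from 3002 to 0 in WT and from 3008 to 35 in KO. It thus cannot show the part of myeloid cells in the Hk3 change, which was not tested.

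**Figure D4:**
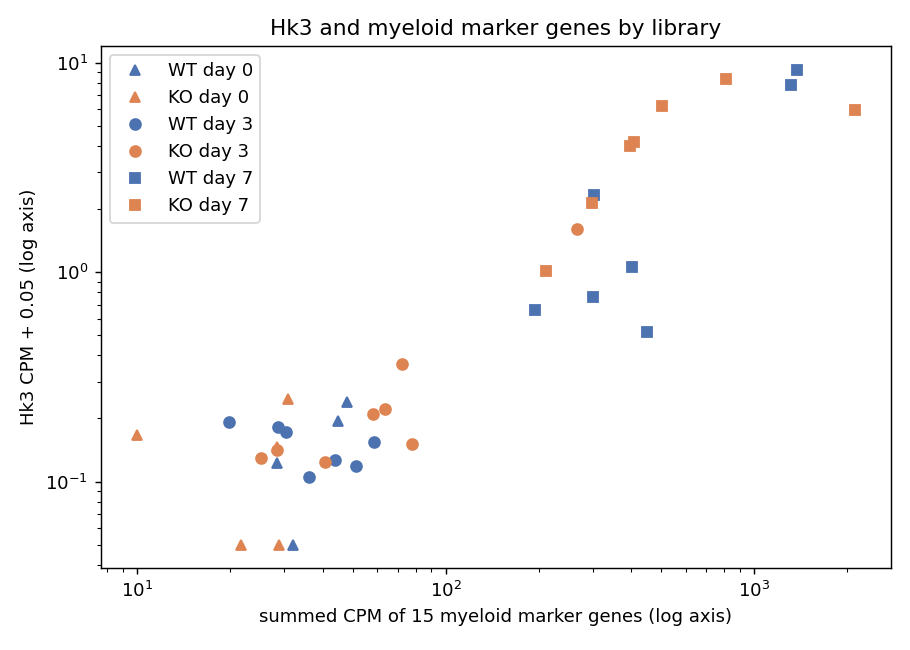
Hk3 level (vertical axis, CPM plus an offset of 0.05, log axis) against the summed CPM of 15 myeloid marker genes (horizontal axis, log axis) in each of the 38 libraries, by genotype (colour) and day (symbol). The day 7 libraries lie at sums of 195 to 2114 CPM and Hk3 levels of 0.467 to 9.23 CPM, and 1 KO library of day 3, at a sum of 267 CPM, lies among them.

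Of the genes for other sugar kinases, glucose transport, glucose 6-phosphate use and lower glycolysis, 0 passed with edgeR in KO against WT on any day, in lists of 9, 10, 14 and 27 genes (0.0335% of all genes passed on day 0, and fewer later). On day 0 the tested genes of these lists with an unadjusted p under 0.05 were 1 of 8, 2 of 6, 1 of 12 and 3 of 26, against 10.5% of all genes. DESeq2 called Galk1, Slc2a5 and Eno3, against 1.34% of all genes. On days 3 and 7 DESeq2 called 0, and unadjusted p under 0.05 was found for 1, 2, 0 and 1 genes on day 3 (7.88% of all genes) and for 1, 2, 1 and 2 on day 7 (12.9% of all genes). The day 0 medians of the log2 fold changes were 0.04, 0.16, 0.14 and 0.06 over the 8, 6, 12 and 26 genes tested, against -0.003 over all genes. By the smallest p in each list, the day 0 values were 1.08 for Slc2a5 (edgeR adjusted p = 0.233), the fructose transporter, and 0.46 for Galk1 (edgeR adjusted p = 0.238), galactokinase. They were also 0.32 for Pgm2 (edgeR adjusted p = 0.393), a phosphoglucomutase, and -0.94 for Eno3 (edgeR adjusted p = 0.233), the muscle-type enolase. By the same rule the day 7 values were -0.86 for Slc2a4 (edgeR adjusted p = 0.291), the insulin-responsive glucose transporter, and -0.205 for Nagk (edgeR adjusted p = 0.327). They were also -0.41 for Slc37a4 (edgeR adjusted p = 0.291), the glucose 6-phosphate carrier of the endoplasmic reticulum, and -0.472 for Pfkfb1 (edgeR adjusted p = 0.34).

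Between day 3 and day 7, where 10.6% of all genes were called higher and 8.7% lower in WT, and 10.5% and 8.83% in KO, genes of 3 of these 4 lists were called. Of the sugar kinases, 0 of 8 passed in either genotype with edgeR or DESeq2, and unadjusted p under 0.05 was found for 1 in WT and 0 in KO, against 32.2% and 30.6% of all genes. Among glucose transporters 2 of 9 rose and 2 fell in WT, and 2 of 8 rose and 1 fell in KO. Slc2a3, the transporter typical of neurons and leukocytes, rose by a log2 fold change of 3.29 in WT (edgeR adjusted p = 0.00364) and 3.06 in KO (adjusted p = 0.000855). Slc2a9, a urate transporter, rose by 0.86 in WT and 0.54 in KO. Slc2a4 had log2 fold changes of -1.78 in WT (edgeR adjusted p = 0.00201) and -2.12 in KO (adjusted p = 0.000235), at levels of at most 2.54 CPM.

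Of the genes that use glucose 6-phosphate, 5 of 13 rose and 0 fell in WT, and 2 of 13 rose and 1 fell in KO. Tested itself, the genotype difference in this change was called for 0 of the 13 by edgeR or DESeq2, with 0 at an unadjusted p under 0.05 (3.47% of all genes) and a median of -0.08. Pgd, a dehydrogenase of the pentose phosphate pathway, rose from 318 to 456 CPM in WT (log2 fold change 0.50, edgeR adjusted p = 0.00215) and from 331.5 to 442 CPM in KO (0.37, adjusted p = 0.00818). Gfpt1, the entry to hexosamine synthesis, had a log2 fold change of -0.30 in KO (edgeR adjusted p = 0.00798). In lower glycolysis 8 of 26 rose and 2 fell in WT, and 5 of 26 rose and 4 fell in KO. Pfkfb3, which makes the activator of phosphofructokinase, rose by 3.30 in WT and 2.27 in KO, and Slc16a3, a lactate exporter, rose by 2.80 and 2.35. Eno3 had log2 fold changes of -2.39 in WT and -2.96 in KO. These day comparisons ran alongside the rise of the myeloid markers given above, whose part in them was not tested.

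The genes whose pattern was most like each member were found over the 29 libraries of days 3 and 7, among about 10545 genes, by the correlation of log2 CPM. The libraries share genotype, day and cell composition, so the coefficients are descriptions. For Hk1 they were Cttn (r = 0.912), which encodes the actin-binding protein cortactin, Kctd10 (0.903) and Tbc1d2 (0.884). For Hk2 the likeness was lower, and the genes given are Armc8 (0.798) and Cx3cl1 (0.704), the chemokine fractalkine. For Hkdc1 they were Mapre3 (0.922), a microtubule end-binding protein, Por (0.905), the reductase of the cytochrome P450 system, and Lpin2 (0.899). For Hk3 they were Mpeg1 (0.976), a macrophage pore-forming protein, Itgb2 (0.971), the shared chain of leukocyte integrins, and Tyrobp (0.970), a myeloid adaptor protein and one of the 15 myeloid markers.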

How the data were processed

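The measurements are unnormalised counts for each gene, whole numbers that the authors made with featureCounts 1.6.2 per the file headers, on paired-end reads with strand ignored. The submitters' processing notes name featureCounts 1.5.2, Trim Galore, STAR and the GRCm38 build. Their settings and the annotation release are not given in the sources used here. Per the labels' protocols, the library kit was a stranded mRNA kit. The day 0 libraries differed from the later ones in their shares of mitochondrial rRNA and histone genes, and the cause was not tested. The 2 lanes of each library (76 files, lane correlation of log counts at least 0.989) were summed. Of the 46078 gene identifiers, 45143 are in GENCODE M21.

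Levels are TMM-scaled CPM over all 38 libraries. Differences were tested with edgeR 4.0.16 (quasi-likelihood test, TMM, expression filter by group, R 4.3.3) on the compared groups, or on all libraries for the fit over days and the interactions. P-values were Benjamini-Hochberg adjusted over all genes tested, and genes with an adjusted p under 0.05 were called. Standard errors came from the F statistic. Alternatives were DESeq2 1.42.0, its size factors, no filter, mitochondrial genes removed, marker covariates, a fit of all libraries, and each library left out. Principal transcript lengths and leaving out both divergent day 3 libraries were added after the data were seen.

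Sums and shares of the family were described without a test. The code was tested on simulated counts. The named genes are the 4 members and, per list and comparison, up to 2 called genes in each direction with the smallest p, or where none was called 2 genes with the smallest p, of which some are printed. Likeness is the Pearson correlation of log2 CPM (prior count 2) among genes with a mean of at least 2. The members and lists were chosen with earlier results of these data known. Depth differed between libraries (10.5 to 60.64 M counts), and a floor of 3 counts covers counting error only. Some genes that the naming rule or the lists include are not reported here.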

Additional observations from a re-analysis of the deposited data

Results flagged for a closer look

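Within each group, the highest and lowest library of each member and of the summed level were compared with the rest by Dixon's gap test. It was applied to 30 sets of values, of which chance flags about 1 in 20, and 7 stood apart. They came from 3 libraries, and the values within a library are not independent.

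The library labelled d3_KO_345 stood above the other KO libraries of day 3 in Hk2 (434.7 CPM, next 127.9), in Hk3 (1.559 CPM, next 0.3146) and in the summed level (119.8 CPM per kb, next 63.98). Its myeloid marker sum was also the highest of day 3, at 267 CPM. Its Hkdc1 level of 34.5 CPM and its Hk1 level of 340 CPM were the second lowest and the highest of the group.

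The library d7_WT_356 stood above the other WT libraries of day 7 in Hk2 (611.3 CPM, next 317.3) and in the summed level (150.2 CPM per kb, next 99.89). It had the highest Hk3 level of all libraries, at 9.23 CPM, and a myeloid marker sum of 1375 CPM, the highest of its group.

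The library d7_KO_420 stood above the other KO libraries of day 7 in Hkdc1 (176.2 CPM, next 76.51) and in the summed level (124.6 CPM per kb, next 74.87). Its myeloid marker sum of 2114 CPM was the highest of all libraries.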

How the results depend on the processing

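Of the alternatives with all libraries kept, these changed a call or a direction, as log2 fold changes. DESeq2 called Hkdc1 on day 0 (0.94), Hk2 on day 7 (-1.25) and Hk2 over all days (-1.10), and leaving genes unfiltered called Hkdc1 on day 0 (0.91). The myeloid covariate ended the Hk2 call on day 0 (-2.13, edgeR adjusted p = 0.0562) and made one over all days (-1.31). For day 7 against day 3, the myeloid covariate gave -0.39 for Hk1, -0.14 for Hk2, -2.47 for Hk3 and 0.76 for Hkdc1 in WT, -0.38 for Hk1, 0.33 for Hk3 and -0.0829 for Hkdc1 in KO, and 0.78 for the genotype difference in Hk3. The small intestine covariate gave -0.0731 for Hk1, 1.53 for Hk2, 5.75 for Hk3 and 0.25 for Hkdc1 in WT, and -0.17 for Hk1 and -0.0535 for Hkdc1 in KO. Both covariates follow the day, and the cause was not tested. A fit of all libraries gave 0.61 for Hkdc1 in WT, no longer called, and 0.74 in KO, now called. Principal transcript lengths moved the log2 ratio of the day 0 sum from -0.87 to -0.60, by their construction.

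Leaving out 1 library gave Hk2 on day 0 -2.40 to -2.0 (6 of 9 not called) and Hk2 over all days -1.29 to -1.0 (called in 2 of 38). Hkdc1 ranged from -0.0482 to 0.20 on day 3, from -0.23 to 0.29 on day 7, and from 0.49 to 0.74 for day 7 against day 3 in WT. In KO between these days, Hk1 ranged from -0.0801 to 0.067 and Hk2 from -0.31 to 0.40. The genotype difference of day 7 against day 3 ranged from -1.35 to 0.0547 for Hk3 and from -0.28 to 0.24 for Hkdc1, and that of day 7 against day 0 from -1.18 to -0.62 for Hkdc1.

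Counts of called genes moved more than the members did. On day 0 they were 5 with edgeR, 177 with DESeq2, 52 unfiltered, 2 and 1 with the myeloid and small intestine covariates, and 0 to 37 with 1 library left out. On day 3 they were 1 and, with DESeq2, 2, and 0 in 14 of 15 fits with 1 library left out. On day 7 they were 1, 1 to 2 with 1 library left out, 83 with DESeq2, 38 in the fit of all libraries and 2 unfiltered, and over all days 4, 3 to 7 with 1 library left out and 19 with DESeq2. For day 7 against day 3 they fell from 3002 to 0 (myeloid) and 149 (small intestine) in WT, and from 3008 to 35 and 1644 in KO. The genotype differences against day 0 had 4 (day 7) and 2 (day 3), 75 and 22 with DESeq2, 2 and 0 with its size factors in edgeR, 0 and 0 unfiltered or with the myeloid covariate, and 0 to 436 and 0 to 8 with 1 library left out. No paired analysis was possible because the groups share no replicate numbers. Day 0 had the fewest counts and libraries, and Hk3 there was at the floor.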
